A study of Arabidopsis thaliana with 16 samples.

Results

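Of 2414 de novo transcripts that had been reconstructed from total RNA of germinating Arabidopsis thaliana, 459 were highest after the move to light and were not sensitive to the nuclear exosome by a fixed ratio at 57 h. Levels are counts scaled to 1000000 counts of nuclear genes and de novo transcripts per library (CPM). A member had its highest mean among the 6 wild-type groups in L6, L26 or L57, and that mean was at least 0.1 CPM. A transcript counted as exosome-sensitive, and was left out, when both mutants had at least 0.2 CPM and (mutant + 0.05)/(L57 + 0.05) was at least 3 in both. The mutants were sampled at 57 h only. Sensitivity was therefore not assessed in L6 or L26, where 116 and 133 of the members were highest. In L57 the median level was 0.0875 CPM for the former and 0.123 CPM for the latter. The members were thus chosen by their mean CPM in the stages and mutants, and the levels of the members across stages and mutants are given as a description, with no test. By the same rule 573 transcripts were exosome-sensitive, 578 were highest in a seed stage and 804 stayed under the floor.

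The hen2-4 and rrp4-2 seedlings carry mutations in the Col-0 background and were taken at the stage of L57, after 57 h of continuous light. The wild type, Col-0, was sampled at 6 stages. DS are dry seeds. S24 and S72 are seeds kept wet in cold darkness for 24 h and 72 h. L6, L26 and L57 had then been under continuous light for 6 h, 26 h and 57 h, in shaken liquid medium. L26 is the time at which about as many seeds had a radicle out as had not, and L57 seedlings had open green cotyledons. Each of the 8 groups had 2 libraries, and no source says whether these were grown apart. A p-value here sets a difference only against the spread between libraries of the same group, estimated over all 8 groups together. All are whole seeds or seedlings, in which fewer cells of a type and less RNA per cell cannot be told apart.

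Nuclear counts per library lay between 56.6 and 246 M (M, 1000000 counts), with S24, S72 and both mutants (125 to 246 M) deeper than DS, L6, L26 and L57 (56.6 to 105 M). Organellar transcripts took 4.22% to 11.5% of all counts up to L26 and 41.2% to 49.8% in L57 and the mutants. The storage protein gene CRA1 had 24937 and 28680 CPM in DS and at most 66.5 in any 57 h library, and the light-harvesting gene LHCB1.1 had 5134 and 5594 CPM in L57 and at most 15.5 before it. The endosperm markers EXPA2 and CP1, summed, had 2.07 to 78.6 CPM in the seed libraries, 1347 and 1378 CPM in L6, 3465 and 3327 CPM in L26 and 984 and 813 CPM in L57. The sums were 294 and 279 CPM for hen2-4 and 198 and 184 CPM for rrp4-2, and neither marker was at 0. The markers differed from L26 on. EXPA2 fell from 847 and 711 CPM in L26 to 6.99 and 11.2 CPM in L57, where CP1 had 977 and 802 CPM. In both mutants CP1 was lower than in L57, whereas EXPA2 passed the edgeR test in neither. The sums in L57 and the mutants thus rest mostly on CP1. Over all groups the sums were highest in L26 and next in L6, the stages in which part of the members peaked. The part of the endosperm in these members was not tested. HEN2 itself had 129.9 and 124 CPM in the libraries labelled hen2-4, against 29.3 and 27.1 in L57 (log2 fold change 2.16, SE 0.08, adjusted p = 8.2e-09). The lesion in hen2-4 is not described in the sources used here, so that a count over the whole gene does not check the label. All de novo transcripts together took 0.233% and 0.249% of nuclear counts in hen2-4 and 0.199% and 0.223% in rrp4-2, against 0.0723% and 0.0707% in L57. The rrp4-2 allele changes the sequence of RRP4, whose level (11.2 ± 2.65 CPM in rrp4-2 and 9.42 ± 1.29 in L57, SD, n = 2 each, adjusted p = 0.359) checks nothing.

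The RNA exosome degrades RNA from its 3' end. In the plant nucleus the helicase HEN2 hands it many non-coding RNAs, and RRP4 is a subunit of its core. Non-coding transcripts often start within or beside a protein-coding gene, either on the other strand of its body (antisense) or upstream, pointing away from it (divergent). Germination in the light runs from the use of seed reserves and the weakening of the endosperm through radicle emergence to greening.

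The sequence at the start of the 2 highest members of each stage is printed here 5' to 3' on the strand of the transcript, because these 6 transcripts carry the highest levels described below. Coordinates are those of TAIR10 and sequence is from the reference assembly TAIR10.1. The window searched ran from 250 bases before to 50 bases after the start. Capitals mark a match on either strand to the TATA box TATAAA, the G-box CACGTG, the I-box GATAAG, the site II element TGGGCC or the telo-box motif AAACCCT. When a match lies on the other strand, its reverse complement is what appears. The windows of the first 3, at chr2:2184712-2185011 (plus), chr4:6896962-6897261 (plus) and chr1:28889507-28889806 (minus), are whole. In the other 3, at the 3' end of a coding gene, the 219 to 255 bases that lie in annotated UTR are left out, which leaves chr3:21150742-21150786 (plus), chr4:18279646-18279710 (minus) and chr2:14119526-14119602 (plus).
HOMER_RNA_00063127: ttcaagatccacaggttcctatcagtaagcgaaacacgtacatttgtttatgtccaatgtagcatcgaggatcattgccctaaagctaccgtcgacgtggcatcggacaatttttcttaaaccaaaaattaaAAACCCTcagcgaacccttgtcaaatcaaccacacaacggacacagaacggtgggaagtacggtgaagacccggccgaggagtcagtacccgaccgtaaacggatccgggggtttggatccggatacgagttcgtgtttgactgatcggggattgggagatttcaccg
STRINGTIE_RNA_00100762: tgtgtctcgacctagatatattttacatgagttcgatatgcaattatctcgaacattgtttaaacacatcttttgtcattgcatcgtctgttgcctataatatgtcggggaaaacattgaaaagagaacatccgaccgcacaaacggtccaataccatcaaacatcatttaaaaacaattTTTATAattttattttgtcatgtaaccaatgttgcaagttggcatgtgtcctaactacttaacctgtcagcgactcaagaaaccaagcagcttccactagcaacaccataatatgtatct
HOMER_RNA_00016868: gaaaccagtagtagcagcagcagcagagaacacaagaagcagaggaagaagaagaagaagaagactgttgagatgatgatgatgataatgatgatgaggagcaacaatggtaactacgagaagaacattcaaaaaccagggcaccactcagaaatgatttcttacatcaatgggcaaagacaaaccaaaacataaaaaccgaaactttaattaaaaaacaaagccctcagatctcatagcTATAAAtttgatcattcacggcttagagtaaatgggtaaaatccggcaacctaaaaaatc
HOMER_RNA_00091969: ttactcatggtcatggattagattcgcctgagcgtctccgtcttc
HOMER_RNA_00112578: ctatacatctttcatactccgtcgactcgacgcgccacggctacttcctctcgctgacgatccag
STRINGTIE_RNA_00040436: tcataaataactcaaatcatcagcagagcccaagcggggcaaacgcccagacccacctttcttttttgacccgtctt
Each of the last 3 stretches opens with the reverse complement of the stop codon of the gene on the other strand, so that these transcripts start within 27 bases of it.

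In the whole windows, AAACCCT lay 118 bases before the start of HOMER_RNA_00063127, TATAAA lay 70 bases before that of STRINGTIE_RNA_00100762 on the other strand and 10 bases before that of HOMER_RNA_00016868, and it lay 236 and 132 bases before that of HOMER_RNA_00112578 in the part not printed. HOMER_RNA_00091969 and STRINGTIE_RNA_00040436 had no match in their windows. Over all 459 members, 45.5% of the windows held TATAAA, 22.7% GATAAG, 14.4% TGGGCC, 6.97% AAACCCT and 5.66% CACGTG. The shares over the windows of 27444 protein-coding genes were 52.1%, 14.6%, 15.5%, 10.0% and 7.68% in the same order. In the exosome-sensitive set they were 46.6%, 29.1%, 14.1%, 5.76% and 9.25%. The seed-stage set had 40.5%, 20.1%, 15.6%, 6.06% and 12.6%. TATAAA between 40 and 20 bases before the start was present in 2.40% of members and in 6.46% of coding genes. It was present in 4.36% of the exosome-sensitive and 3.63% of the seed-stage set. The starts of members are those of assembled transcripts, and how exact they are was not tested. AAACCCT was held by 12.9% of the members highest in L6, 5.26% of those highest in L26 and 4.76% of those highest in L57. In the same order the shares were 20.7%, 15.8% and 10.0% for TGGGCC and 4.31%, 7.52% and 5.24% for CACGTG. They were 19.0%, 21.1% and 25.7% for GATAAG and 40.5%, 45.1% and 48.6% for TATAAA. A match describes the letters alone.

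Most members were antisense transcripts of protein-coding genes. Of the 459, 402 (87.6%) overlapped a coding gene on the other strand, 19 were divergent from a coding gene whose start lay within 500 bases, 24 lay opposite an annotated non-coding gene or pseudogene and 14 were intergenic. Antisense transcripts made up 79.9% of the exosome-sensitive and 87.4% of the seed-stage set. Among the 402, 61 started in the 5' portion of the gene, before its midpoint and more than 1000 bases from its 3' end, and 341 started nearer to that end or beyond it. The median start lay at 83.2% of the gene's length from its 5' end. Transcription of 78 of them ran over the gene's own start. Members had a median spliced length of 662 bases (206 to 3844) and a median GC content of 41.2%, against 37.5% in the exosome-sensitive and 40.5% in the seed-stage set. More than 1 exon was annotated in 47 members (10.2%), against 23 (4.01%) and 30 (5.19%) in the other sets, and 169 of all 171 introns of de novo transcripts began with GT and ended with AG. HOMER had built 361 members and StringTie 98. They were spread over all 5 chromosomes, from 64 on chromosome 4 to 136 on chromosome 1.

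The members fell into 116 highest in L6, 133 in L26 and 210 in L57. The mean in the highest stage had a median of 0.399 CPM, reached 1 CPM in 123 members and 10 CPM in 7, and ran up to 168 CPM. Members highest in L57 had a median of 0.00703 CPM in DS, 0.0275 in S24, 0.0165 in S72, 0.0330 in L6, 0.0903 in L26 and 0.353 in L57. For those highest in L26 the medians were 0.0258, 0.0619 and 0.0442 CPM in DS, S24 and S72, and 0.174, 0.398 and 0.123 CPM in L6, L26 and L57. For those highest in L6 they were 0.0578, 0.180 and 0.152 CPM in DS, S24 and S72, and 0.455, 0.269 and 0.0875 CPM in L6, L26 and L57. Later members were thus further above the seed stages. The highest mean was 3.79 times that of the highest seed stage in the median L57 member, 3.27 times in the median L26 member and 1.81 times in the median L6 member.

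**Figure D1:**
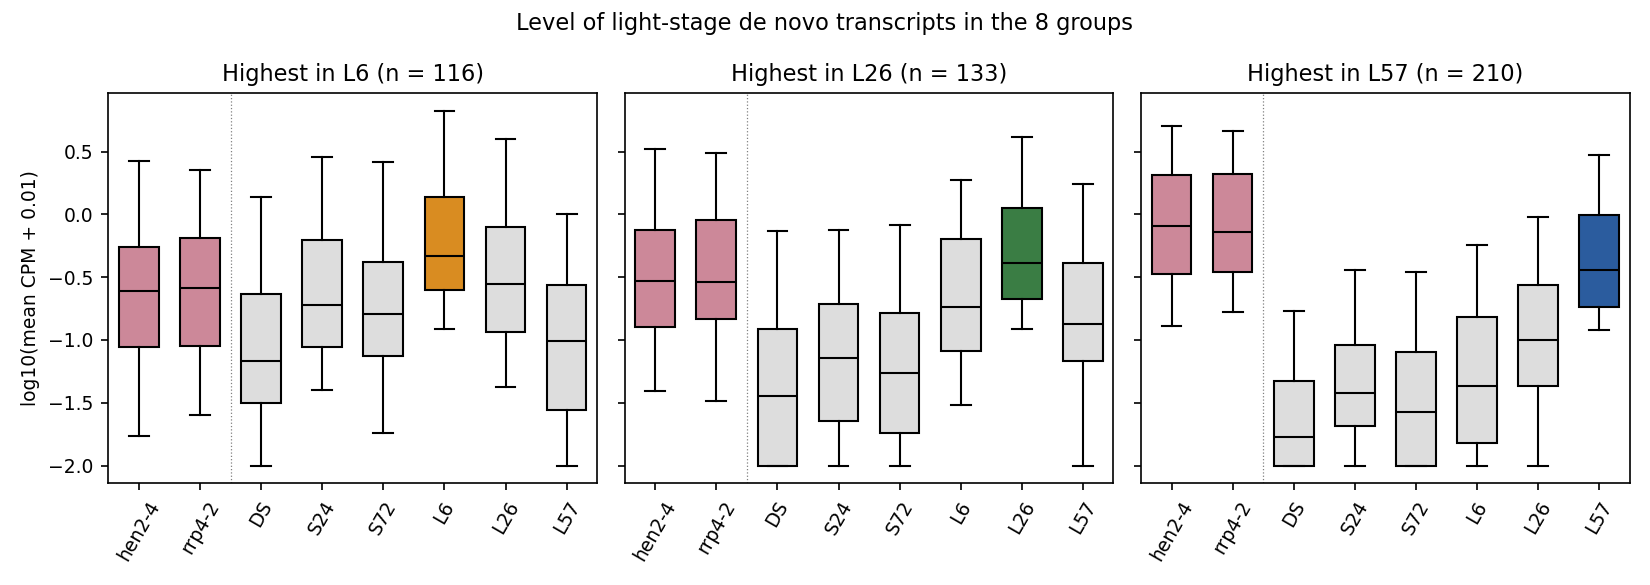
Levels of the light-stage members in the 8 groups, as log10(mean CPM + 0.01), in 3 panels by the stage of the highest mean (116, 133 and 210 members). Boxes span the quartiles with the median as a line and whiskers the 5th to the 95th percentile of members, a level of 0 CPM lies at the bottom of the axis, mutants are left of the dotted line, and the colored box is the stage that chose the panel.

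Together the members took 0.0689% to 0.0743% of nuclear counts in the mutants, against 0.0431% to 0.0641% in L6, L26 and L57 and 0.0242% to 0.0378% in the seed libraries. In DS 192 and 199 members had no count, but 3 counts there already correspond to 0.0284 and 0.0422 CPM. The 13 members with no count in any seed library are therefore not shown to be absent from seeds. Both libraries of the highest stage lay above every other Col-0 library in 316 members and above every seed library in 400, an order that the choice of members in part fixes. The ratio of the higher to the lower library in the highest stage had a median of 1.22 and exceeded 3 in 18 members. Among members of at least 0.5 CPM it did so in 3 of 201, all in L57: HOMER_RNA_00119172 opposite OTP70, HOMER_RNA_00154754 opposite CYP94B1 (0.760 and 6.90 CPM) and HOMER_RNA_00101764 opposite AIR12 (0.707 and 4.69 CPM). The first was high in replicate 1 (its lower library had 1.45 CPM) and the others in replicate 2. When the rule was applied to replicate 1 libraries alone it chose 466 transcripts, of which 92.7% were highest in a light stage in the replicate 2 libraries as well and 74.9% in the same stage. Among all de novo transcripts over the floor the share highest in a light stage was 48.4%. With the replicates exchanged, 473 were chosen and the shares were 86.5%, 70.2% and 44.5%.

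Membership depended on the scaling, and the stage that lost most members differed between scalings. With library sizes scaled by TMM 338 of the 459 stayed members, 66 were highest in a seed stage and 65 fell under the floor, and with DESeq2 size factors 383 stayed. Of members highest in L6, 74 of 116 stayed with TMM and 75 with DESeq2 size factors, against 163 and 199 of 210 highest in L57. With CPM over all rows, organellar ones included, 113 of 116 L6 members stayed but 147 of 210 L57 members, of which 23 became highest in a seed stage and 45 fell under the floor. Just inside the floor were means of 0.1002, 0.1006 and 0.1011 CPM and just outside 0.0983, 0.0983 and 0.0988. Just inside the limit on exosome sensitivity the lower of the mutant ratios was 2.98, 2.98 and 2.99, and just outside it was 3.00 in each of 3 transcripts.

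The highest members of L6 were a short transcript opposite a snoRNA gene and a transcript that was nearly confined to L6 and L26. HOMER_RNA_00063127 (chr2:2184962-2185187, plus strand), opposite the snoRNA gene AT2G04965, had 105 and 112 CPM in DS, 125 and 142 CPM in S24, 111 and 109.8 CPM in S72, 164 and 171 CPM in L6, 158 and 161 CPM in L26 and 96.4 and 90.0 CPM in L57. It was high in all 16 libraries, 38.1% of its length has a near-identical copy elsewhere, and with TMM or DESeq2 size factors its highest stage was DS. STRINGTIE_RNA_00100762 (chr4:6897212-6898323, plus strand) had 0.0843 and 0.0853 CPM in DS, 0.119 and 0.0976 CPM in S24, 0.744 and 1.08 CPM in S72, 29.6 and 26.4 CPM in L6, 24.8 and 26.5 CPM in L26 and 0.265 and 0.173 CPM in L57. Its L6 and L26 libraries were thus at least 24.8 CPM and all others at most 1.08. It had 0.103 and 0.0432 CPM in hen2-4 and 0.464 and 0.262 CPM in rrp4-2. It lies within AT4G11340 (chr4:6894208-6899130), which encodes a TIR-NBS-LRR disease resistance protein and had at most 0.0300 CPM in any library, so the gene was not tested.

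The next members highest in L6 were an antisense transcript of RGL3, a divergent transcript and a transcript within an uncharacterized gene. HOMER_RNA_00148007 (chr5:5764147-5766271, plus strand) is antisense to RGL3 (AT5G17490), which encodes a DELLA repressor of gibberellin responses, and covers 93.0% of it. It had 0.295 and 0.503 CPM in DS, 1.55 and 1.47 CPM in S24, 0.469 and 0.474 CPM in S72, 6.15 and 7.09 CPM in L6, 1.95 and 2.02 CPM in L26 and 0.194 and 0.110 CPM in L57. L6 stood above every other stage, and the RGL3 mRNA was highest in L6 as well (209 and 204 CPM). HOMER_RNA_00150974 (chr5:5448540-5448815, plus strand), divergent from AT5G16610, had 1.38 and 1.25 CPM in DS, 4.85 and 4.42 CPM in S24, 2.45 and 2.93 CPM in S72, 12.3 and 12.2 CPM in L6, 5.66 and 8.25 CPM in L26 and 2.03 and 2.41 CPM in L57. It starts 185 bases from the gene and had 6.06 and 7.61 CPM in hen2-4 and 3.81 and 5.19 in rrp4-2, against 2.03 and 2.41 in L57. HOMER_RNA_00073705 (chr3:10355890-10356633, plus strand), within AT3G27906, whose product is not characterized, had 0.253 and 0.228 CPM in DS, 0.292 and 0.272 CPM in S24, 1.63 and 1.69 CPM in S72, 6.85 and 6.14 CPM in L6, 6.08 and 5.90 CPM in L26 and 3.16 and 4.11 CPM in L57. Its L6 libraries lay just above those of L26, and the rrp4-2 libraries (7.68 and 3.17 CPM) spanned more than that gap.

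Several L6 members were present through all seed stages and low in L57. STRINGTIE_RNA_00005791 (chr1:27217085-27221259, plus strand), a transcript of 3 exons that covers 99.8% of PSY1R (AT1G72300), had 3.81 and 4.46 CPM in DS, 4.46 and 2.77 CPM in S24, 2.82 and 2.53 CPM in S72, 7.28 and 7.13 CPM in L6, 3.17 and 3.60 CPM in L26 and 0.30 and 0.362 CPM in L57. PSY1R encodes a leucine-rich repeat receptor kinase named for the secreted peptide PSY1, and its mRNA ran the other way, with 0.112 and 0.142 CPM in DS, 0.973 and 0.821 CPM in S24, 1.12 and 1.26 CPM in S72, 0.761 and 0.900 CPM in L6, 4.11 and 4.88 CPM in L26 and 53.6 and 53.6 CPM in L57. STRINGTIE_RNA_00023658 (chr1:8095175-8097581, minus strand), with 2 exons, opposite the cellulase gene CEL5 (AT1G22880), had 18.5 and 23.7 CPM in DS, 22.1 and 18.4 CPM in S24, 20.5 and 18.8 CPM in S72, 22.7 and 22.6 CPM in L6, 18.4 and 14.7 CPM in L26 and 5.72 and 5.48 CPM in L57, and its DS and L6 libraries overlapped. HOMER_RNA_00045465 (chr2:9074967-9075712, plus strand), opposite AT2G21180, had 2.28 and 2.59 CPM in DS, 5.89 and 5.52 CPM in S24, 7.45 and 5.69 CPM in S72, 6.72 and 7.56 CPM in L6, 4.21 and 3.73 CPM in L26 and 0.318 and 0.157 CPM in L57, with S72 and L6 overlapping. With TMM or DESeq2 size factors each of these 3 was highest in a seed stage.

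**Figure D2:**
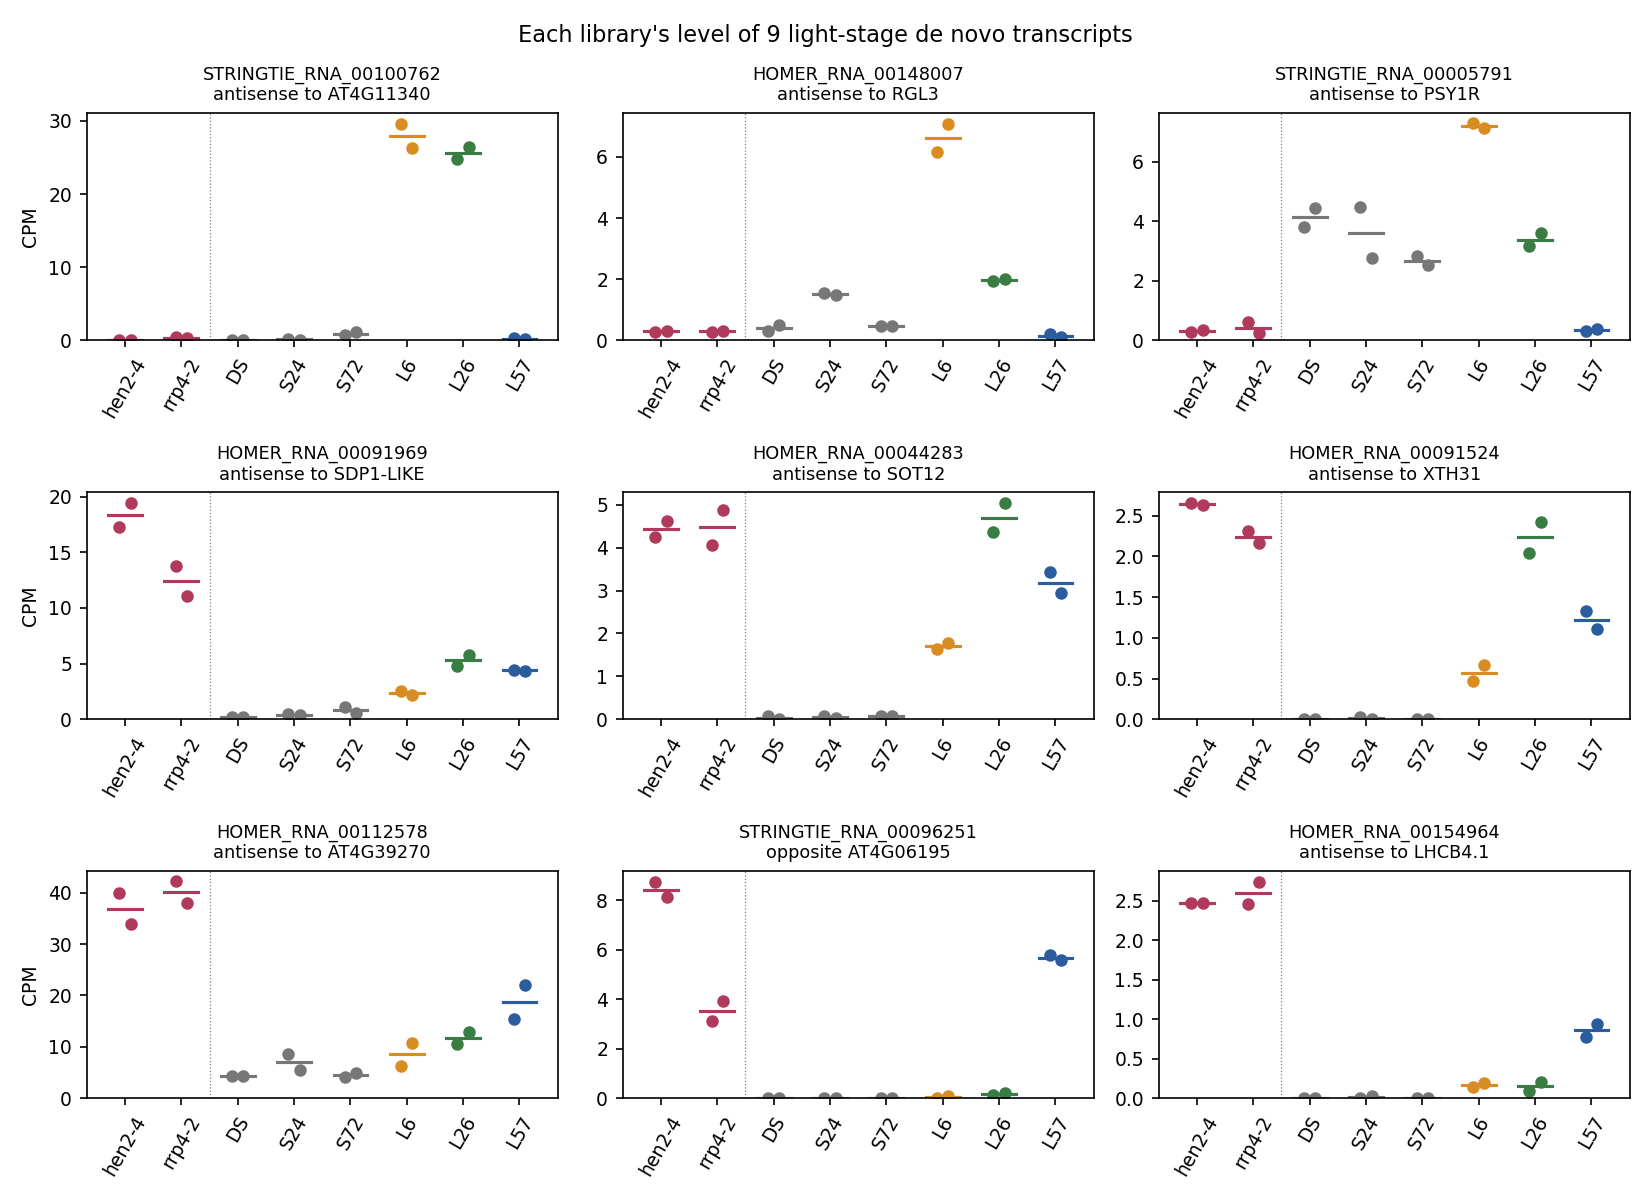
Level in each library (points, CPM) and group mean (bars) of 9 members, 3 highest in L6 (top), 3 in L26 (middle) and 3 in L57 (bottom), with the mutants left of the dotted line. STRINGTIE_RNA_00100762 reached 24.8 CPM or more in the L6 and L26 libraries only, and HOMER_RNA_00091969 and HOMER_RNA_00112578 were higher in both mutants than in any L57 library.

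Around radicle emergence the highest member was again opposite a non-coding gene. HOMER_RNA_00016868 (chr1:28889307-28889556, minus strand), opposite the non-coding genes AT1G09915 and AT1G09687, of which the second is a miRNA gene, had 57.7 and 70.2 CPM in DS, 101 and 115 CPM in S24, 105 and 108 CPM in S72, 98.1 and 92.3 CPM in L6, 129 and 156 CPM in L26 and 67.9 and 68.7 CPM in L57. It was high throughout, and with TMM or DESeq2 size factors it was highest in a seed stage. HOMER_RNA_00091969 (chr3:21150737-21154153, plus strand) covers 85.4% of SDP1-LIKE (AT3G57140), named for the oil body lipase SDP1, and had 0.169 and 0.247 CPM in DS, 0.509 and 0.342 CPM in S24, 1.07 and 0.568 CPM in S72, 2.57 and 2.14 CPM in L6, 4.81 and 5.75 CPM in L26 and 4.45 and 4.32 CPM in L57. All its seed libraries were below its L6 libraries. SDP1-LIKE mRNA had 20.8 and 25.7 CPM in DS, 56.3 and 49.8 CPM in S24, 36.7 and 36.1 CPM in S72, 88.4 and 86.1 CPM in L6, 50.5 and 50.3 CPM in L26 and 2.37 and 2.13 CPM in L57, so that in L57 it was below its antisense transcript in counts.

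Antisense transcripts of stress, vitamin and ethylene genes were also among the highest in L26. HOMER_RNA_00044283 (chr2:1149430-1150757, plus strand), opposite the sulfotransferase gene SOT12 (AT2G03760), had 0.0703 and 0 CPM in DS, 0.0796 and 0.0244 CPM in S24, 0.0731 and 0.0700 CPM in S72, 1.64 and 1.77 CPM in L6, 4.36 and 5.05 CPM in L26 and 3.43 and 2.95 CPM in L57. HOMER_RNA_00046589 (chr2:13000929-13002103, plus strand), opposite AT2G30505 of the late embryogenesis abundant hydroxyproline-rich glycoprotein family, had 0.0703 and 0.0190 CPM in DS, 0.0840 and 0.0610 CPM in S24, 0.0946 and 0.140 CPM in S72, 2.49 and 1.99 CPM in L6, 3.78 and 4.42 CPM in L26 and 0.777 and 0.693 CPM in L57. Both were at most 0.140 CPM in every seed library. HOMER_RNA_00052683 (chr2:16011553-16012452, minus strand) lies within PDX1.1 (AT2G38230), a gene of vitamin B6 synthesis, and had 0.365 and 0.408 CPM in DS, 0.531 and 0.525 CPM in S24, 2.24 and 1.86 CPM in S72, 3.40 and 3.21 CPM in L6, 4.87 and 3.80 CPM in L26 and 3.11 and 2.60 CPM in L57. Its L26 libraries were above all others. STRINGTIE_RNA_00051038 (chr2:8475519-8477367, plus strand), a transcript of 5 exons opposite ACO1 (AT2G19590), which encodes the last enzyme of ethylene synthesis, had 0.843 and 0.550 CPM in DS, 0.681 and 0.561 CPM in S24, 0.817 and 1.16 CPM in S72, 5.13 and 2.85 CPM in L6, 5.2 and 3.31 CPM in L26 and 0.548 and 0.535 CPM in L57, with L6 and L26 overlapping. STRINGTIE_RNA_00084894 (chr3:1732513-1735833, plus strand), with 8 exons the most of any member, runs over the invertase gene INVH (AT3G05820) and had 0.829 and 1.08 CPM in DS, 0.774 and 0.590 CPM in S24, 0.761 and 0.618 CPM in S72, 3.64 and 3.78 CPM in L6, 4.99 and 5.05 CPM in L26 and 0.230 and 0.173 CPM in L57. INVH had at most 1.07 CPM in any library. HOMER_RNA_00109617 (chr4:10481593-10483582, minus strand), opposite the carotenoid cleavage gene NCED4 (AT4G19170), had 1.73 and 1.88 CPM in DS, 2.99 and 2.52 CPM in S24, 2.26 and 2.07 CPM in S72, 1.72 and 1.60 CPM in L6, 4.08 and 4.52 CPM in L26 and 2.07 and 1.50 CPM in L57 and was at least 1.50 CPM in every library, while NCED4 mRNA had 255 and 304 CPM in DS and 4.28 and 3.65 in L26.

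In seedlings the highest members were antisense to a receptor kinase gene and a lipid-binding protein gene. HOMER_RNA_00112578 (chr4:18276472-18279695, minus strand), opposite the leucine-rich repeat kinase gene AT4G39270, had 4.29 and 4.39 CPM in DS, 8.52 and 5.53 CPM in S24, 4.19 and 4.92 CPM in S72, 6.29 and 10.7 CPM in L6, 10.6 and 12.9 CPM in L26 and 15.3 and 22.0 CPM in L57. The L57 libraries were the highest, and they differed by more than those of L26. STRINGTIE_RNA_00040436 (chr2:14119553-14122464, plus strand), with 2 exons, covers 91.5% of AT2G33320, a gene of the calcium-dependent lipid-binding family, and had 0.506 and 0.635 CPM in DS, 3.81 and 2.52 CPM in S24, 1.84 and 2.15 CPM in S72, 5.03 and 4.21 CPM in L6, 9.22 and 10.8 CPM in L26 and 10.8 and 9.70 CPM in L57, so that L26 and L57 overlapped. Its sense gene had at most 1.02 CPM in any library. STRINGTIE_RNA_00014480 (chr1:27209801-27212928, plus strand), with 5 exons, opposite AT1G72275, had 0 and 0 CPM in DS, 0.606 and 0.220 CPM in S24, 0.0989 and 0.157 CPM in S72, 0.371 and 0.126 CPM in L6, 1.20 and 1.15 CPM in L26 and 6.31 and 6.02 CPM in L57. It was at most 1.20 CPM in every earlier library. Opposite AT3G63450, which encodes an RNA-binding protein, HOMER_RNA_00092205 (chr3:23427004-23429322, plus strand) had 0 and 0.0474 CPM in DS, 0.0310 and 0.0447 CPM in S24, 0 and 0.0659 CPM in S72, 0.341 and 0.188 CPM in L6, 1.37 and 1.96 CPM in L26 and 4.57 and 3.87 CPM in L57.

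A pair of L57 members opposite non-coding genes were low in every library before L57. STRINGTIE_RNA_00096251 (chr4:8345934-8346498, minus strand), opposite the lncRNA gene AT4G06195, had 0 and 0 CPM in DS, 0.0133 and 0 CPM in S24, 0 and 0 CPM in S72, 0.0200 and 0.0733 CPM in L6, 0.150 and 0.232 CPM in L26 and 5.78 and 5.58 CPM in L57. STRINGTIE_RNA_00145794 (chr5:7890672-7891585, minus strand), opposite the lncRNA gene AT5G03615, had 0 and 0 CPM in DS, 0.0265 and 0.0366 CPM in S24, 0.0903 and 0 CPM in S72, 0.0601 and 0 CPM in L6, 0.182 and 0.285 CPM in L26 and 4.17 and 5.10 CPM in L57. The L57 libraries of both were at least 4.17 CPM and all earlier ones at most 0.285. A divergent member differed less between stages. HOMER_RNA_00160938 (chr5:8952555-8953358, minus strand), which starts 17 bases from AT5G25754, a gene annotated as an RNA polymerase I-associated factor, had 2.95 and 3.15 CPM in DS, 3.25 and 2.91 CPM in S24, 3.58 and 3.29 CPM in S72, 3.41 and 2.65 CPM in L6, 3.60 and 3.11 CPM in L26 and 5.30 and 5.2 CPM in L57. With TMM or DESeq2 size factors it was highest in a seed stage.

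In the exosome mutants the members were mostly somewhat higher than in L57, within the limit that the rule set. The median ratio was 1.73 in hen2-4 and 1.799 in rrp4-2. It was at least 3 in hen2-4 for 53 members, in rrp4-2 for 54 and in both for 8, all 8 with less than 0.2 CPM in a mutant, and below 1 in both for 34. These ratios were used by the rule, and both share the L57 libraries. The members highest in L57 had a median of 0.803 CPM in hen2-4 and 0.718 in rrp4-2, against 0.353 in L57. HOMER_RNA_00112578 had 39.8 and 33.9 CPM in hen2-4 and 42.3 and 38.0 in rrp4-2, against 15.3 and 22.0 in L57, and HOMER_RNA_00091969 had 17.3 and 19.4 CPM in hen2-4 and 13.8 and 11.1 in rrp4-2, against 4.45 and 4.32 in L57, so the groups did not overlap in either.

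Of members with at least 0.5 CPM in L57, the ratios of hen2-4 to L57 were highest for antisense transcripts of CCL, SDP1-LIKE and a methyltransferase gene. HOMER_RNA_00102068 (chr3:9828103-9828491, minus strand), within CCL (AT3G26740), had 2.69 and 2.45 CPM in hen2-4 and 0.960 and 1.01 in rrp4-2, against 0.530 and 0.614 in L57. HOMER_RNA_00120829 (chr4:13422110-13423712, minus strand), opposite the methyltransferase gene AT4G26600, had 8.66 and 7.61 CPM in hen2-4 and 1.97 and 2.92 in rrp4-2, against 2.07 and 2.13 in L57. Both were higher in hen2-4 than in rrp4-2. The ratios of rrp4-2 to L57 were highest for HOMER_RNA_00027780 (chr1:2953073-2954335, plus strand), opposite the protein phosphatase 2C gene AT1G09160, with 2.17 and 2.15 CPM in hen2-4 and 3.37 and 4.69 in rrp4-2, against 0.865 and 0.850 in L57. HOMER_RNA_00118871 (chr4:9392125-9393652, plus strand), opposite the methylesterase gene MES16 (AT4G16690), had 2.93 and 3.21 CPM in hen2-4 and 4.23 and 4.40 in rrp4-2, against 1.20 and 1.02 in L57. HOMER_RNA_00092242 (chr3:256839-258463, minus strand), opposite the hydrolase gene AT3G01690, had 6.29 and 7.30 CPM in hen2-4 and 8.45 and 8.83 in rrp4-2, against 2.54 and 2.17 in L57. Every mutant library of these 3 was above L57, as it was for the transcript within CCL, whereas rrp4-2 overlapped L57 for HOMER_RNA_00120829.

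Other members were lower in a mutant. STRINGTIE_RNA_00060184 (chr2:19317818-19319220, minus strand), opposite AT2G47010, annotated as a kinase gene, had 0.272 and 0.396 CPM in hen2-4 and 0.848 and 0.950 in rrp4-2, against 1.50 and 0.693 in L57, so that it was below L57 in hen2-4 and within its range in rrp4-2. STRINGTIE_RNA_00096251 had 8.73 and 8.11 CPM in hen2-4 and 3.12 and 3.94 in rrp4-2, against 5.78 and 5.58 in L57, and STRINGTIE_RNA_00145794 had 9.97 and 13.0 CPM in hen2-4 and 1.98 and 4.24 in rrp4-2, against 4.17 and 5.10 in L57. Both were above L57 in hen2-4, and in rrp4-2 the transcript opposite AT4G06195 was below it while that opposite AT5G03615 overlapped it. The low ratios of the transcripts opposite CYP94B1 and AIR12 rested on L57 replicate 2. HOMER_RNA_00101764 had 1.21 and 1.06 CPM in hen2-4 and 0.776 and 0.718 in rrp4-2, against 0.707 and 4.69 in L57, and HOMER_RNA_00154754 had 0.793 and 0.662 CPM in hen2-4 and 4.83 and 0.427 in rrp4-2, against 0.760 and 6.90 in L57. In the transcript opposite CYP94B1, 1 rrp4-2 library was high as well.

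**Figure D3:**
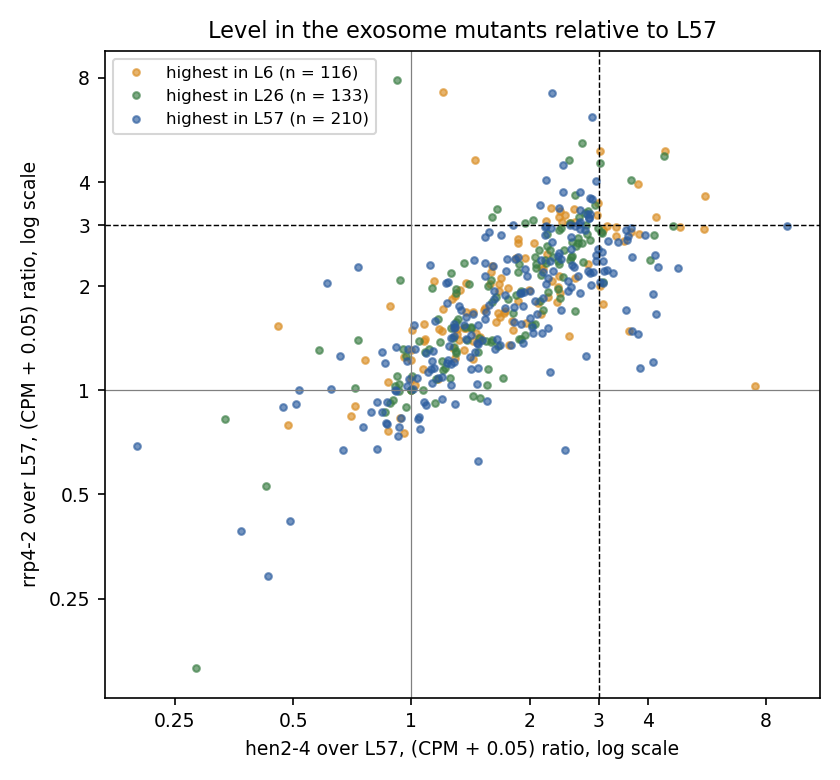
Ratio of each mutant to L57 for the 459 members, as (CPM + 0.05) over (CPM + 0.05), hen2-4 on the x axis and rrp4-2 on the y axis, both on log scales, colored by the stage of the highest mean. Dashed lines mark the ratio of 3 used by the rule and grey lines a ratio of 1, and the medians were 1.73 in hen2-4 and 1.799 in rrp4-2.

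The rule did not use the annotated genes beside the members, so these partner genes were tested between stages. A partner is the coding gene with the longest overlap on the other strand or, for divergent members, the coding gene upstream. The 421 members with a partner had 419 different partners, of which 410 passed the filter on low counts of the edgeR fit over all 28824 genes. Fold changes are on the TMM scale, whose log2 ratio was lower than that of nuclear CPM by 0.43 in L6 against S72, 0.09 in L26 against L6, 0.94 in L57 against DS, 0.04 in hen2-4 against L57 and 0.13 in rrp4-2 against L57, and higher by 0.09 in L57 against L26. With DESeq2 size factors the median over all genes moved from 0 to 0.17 in L57 against DS and from -0.11 to 0.05 in L57 against L26. The library kit kept strand, but the sources used here do not say whether the counting used it. If it did not, reads of a gene and of its antisense transcript cannot be told apart. AT4G11340 had no more than 0.0300 CPM opposite a member with 29.6 and 26.4 CPM in L6, but how reads were assigned in that pair was not tested.

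L6 against S72 asks what changed between the end of stratification and early light. Among partners, PHT2;1 (AT3G26570), the gene of a chloroplast phosphate transporter, rose to 17.3 and 18.9 CPM in L6, against 0.383 and 0.560 in S72 (log2 fold change 4.78, SE 0.18, adjusted p = 5.93e-11). BAM2 (AT3G49670), a receptor kinase gene of the shoot meristem, rose to 4.33 and 5.25 CPM in L6, against 0.774 and 0.886 in S72 (log2 fold change 2.05, SE 0.25, adjusted p = 6.04e-06), and RGL3 to 209 and 204 CPM in L6, against 46.4 and 49.3 in S72 (log2 fold change 1.63, SE 0.11, adjusted p = 2.04e-08). NCED4 (-2.57), AT2G21180 (-2.53) and SOT12 (-2.15, all log2 fold changes) fell. Of 410 partners 210 were higher and 105 lower, or 51.2% and 25.6%, where 33.8% of all genes were higher and 31.0% lower (64.8% in either direction). The higher share was 57.0% for partners of L6 members, 60.3% for L26 and 42.8% for L57.

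L26 against L6 spans radicle emergence. ACO1 rose to 166 and 184 CPM in L26, against 15.8 and 18.7 in L6 (log2 fold change 3.23, SE 0.17, adjusted p = 1.01e-08), and SOT12 to 11.3 and 12.7 CPM in L26, against 1.85 and 2.22 in L6 (log2 fold change 2.44, SE 0.16, adjusted p = 3.72e-08). PSY1R rose with a log2 fold change of 2.32 and CYP94B1 (AT5G63450), which oxidizes the jasmonate hormone, of 3.59. RGL3 fell by 1.25 and GASA3 (AT4G09600), a gene of the GAST1 peptide family, by 3.31 on the log2 scale. Of 410 partners 215 were higher and 92 lower (52.4% and 22.4%), where 30.2% of all genes were higher and 28.1% lower (58.3% in either direction). Partners of L6 members were higher in 30 and lower in 46 of 100, those of L26 members in 69 and 18 of 116, and those of L57 members in 116 and 28 of 194.

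L57 against L26 spans greening. LHCB4.1 (AT5G01530), of the photosystem II antenna, rose to 2292 and 2581 CPM in L57, against 94.7 and 92.5 in L26 (log2 fold change 4.73, SE 0.12, adjusted p = 4.87e-12), and CCL rose to 111 and 138 CPM in L57, against 3.19 and 2.41 in L26 (log2 fold change 5.50, SE 0.22, adjusted p = 1.85e-10). PSY1R rose to 53.6 and 53.6 CPM in L57, against 4.11 and 4.88 in L26 (log2 fold change 3.60, SE 0.10, adjusted p = 9.06e-12). SDP1-LIKE fell to 2.37 and 2.13 CPM in L57, against 50.5 and 50.3 in L26 (log2 fold change -4.47, SE 0.09, adjusted p = 1.47e-12), and ACO1 (-4.23), RGL3 (-4.16) and HSFA7B (-5.62), a heat shock factor gene, fell too. Of 410 partners 196 were higher and 146 lower (47.8% and 35.6%), where 29.7% of all genes were higher and 35.5% lower (65.3% in either direction). Partners of L57 members were higher in 135 and lower in 30 of 194 (69.6% and 15.5%), those of L26 members in 32 and 62 of 116 and those of L6 members in 29 and 54 of 100.

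L57 against DS spans the whole course and shares L57 with the preceding comparison. PHT2;1 had 254 and 257 CPM in L57, against 0.155 and 0.398 in DS (log2 fold change 8.68, SE 0.22, adjusted p = 3.73e-13), and IAA16 (AT3G04730), an Aux/IAA gene of auxin response, had 191 and 196 CPM in L57, against 0.183 and 0.152 in DS (log2 fold change 9.13, SE 0.26, adjusted p = 9.5e-13). AT5G57790, whose product is not characterized, fell to 1.84 and 2.24 CPM in L57, against 251 and 278 in DS (log2 fold change -8.09, SE 0.22, adjusted p = 5.77e-13). Of 410 partners 269 were higher and 102 lower (65.6% and 24.9%), where 40.5% of all genes were higher and 37.7% lower (78.2% in either direction).

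**Figure D4:**
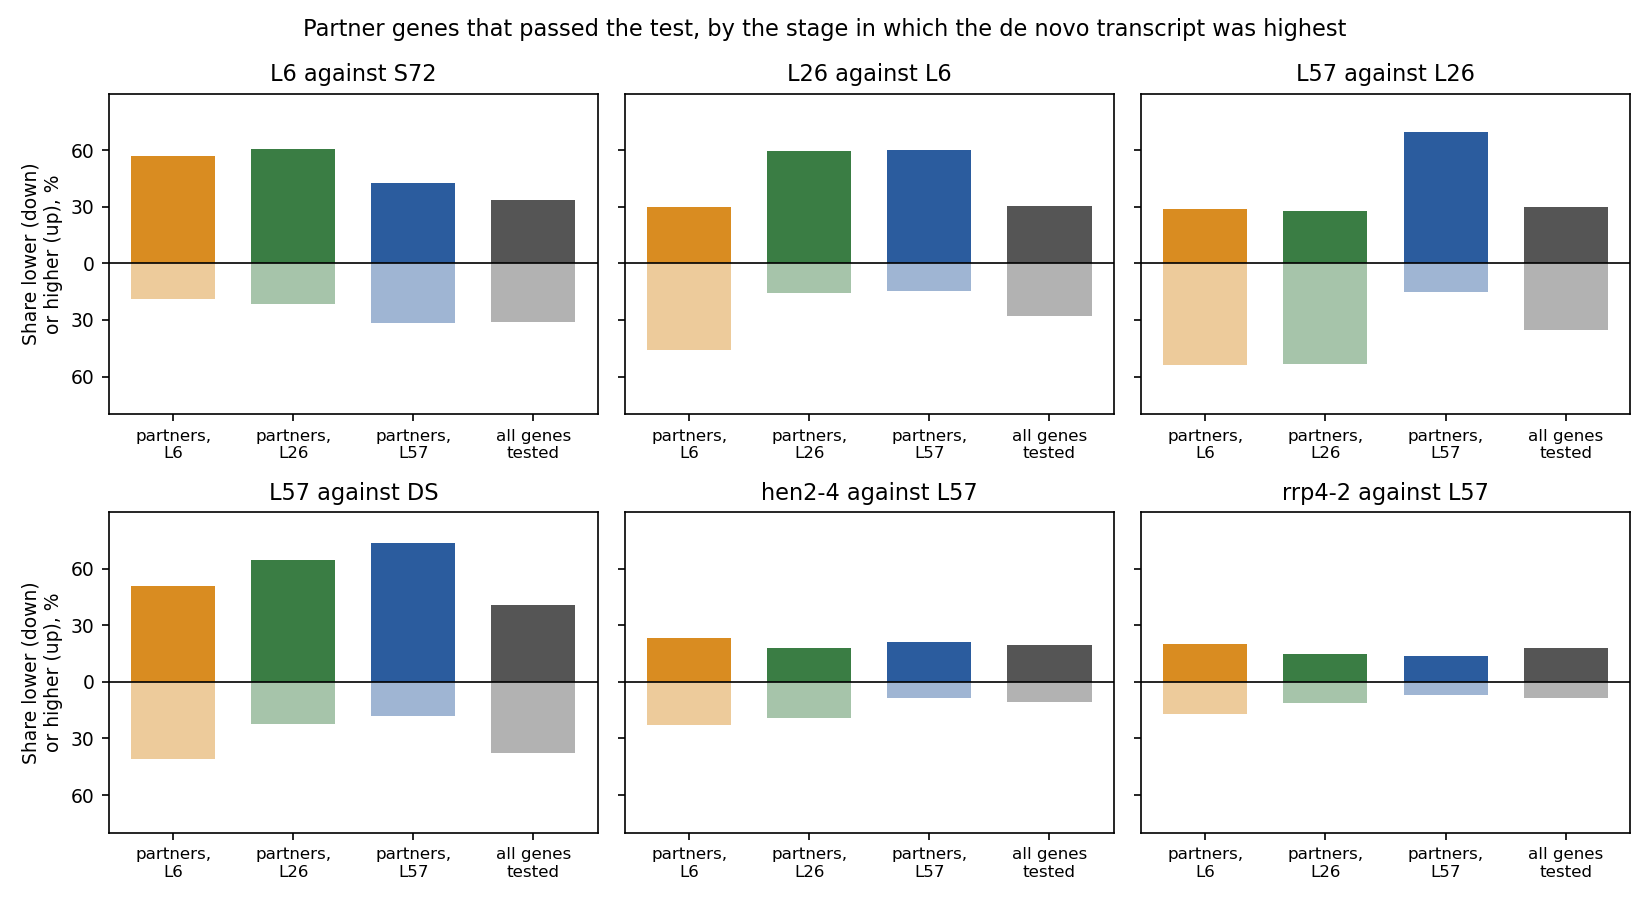
Share of partner genes (%) that passed the edgeR test as higher (up, dark) or lower (down, light) in 6 comparisons, by the stage in which the member was highest (100, 116 and 194 partners tested), beside all 28824 genes tested (grey). In L57 against L26, 69.6% of partners of L57 members were higher and 15.5% lower, against 29.7% and 35.5% of all genes.

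The mutants were compared with wild-type seedlings at 57 h, and both comparisons share the L57 libraries. Among genes used to check the stages, CP1 had log2 fold changes of -1.68 in hen2-4 and -2.38 in rrp4-2. ADH1 had -2.37 and -0.58. In hen2-4 the storage protein gene CRU3 (-1.40) and the gibberellin synthesis gene GA3OX2 (-2.18) were lower too. In rrp4-2 CRA1 was higher (0.70) and the light-harvesting gene LHCB2.1 was lower (-0.87). The other genes of this check, EXPA2, MCM3 and RBCS1A among them, passed the edgeR test in neither mutant. Loss of exosome function and a difference in seedling stage or tissue make-up cannot be told apart here. SOT12 had 89 and 116 CPM in hen2-4, against 28.7 and 27.0 in L57 (log2 fold change 1.86, SE 0.14, adjusted p = 1.4e-06), and CCL had 294 and 314 CPM in hen2-4, against 111 and 138 in L57 (log2 fold change 1.27, SE 0.18, adjusted p = 0.000179). AT2G47010 fell to 3.12 and 2.60 CPM in hen2-4, against 16.2 and 14.9 in L57 (log2 fold change -2.46, SE 0.23, adjusted p = 1.39e-05), where its antisense member was lower too. AT3G27906 rose in both mutants, with log2 fold changes of 1.65 in hen2-4 and 1.27 in rrp4-2, and so did AT2G30505, with 1.24 and 1.35 in the same order. In hen2-4 against L57, 85 of 410 partners were higher and 62 lower (20.7% and 15.1%), where 19.7% of all genes were higher and 10.6% lower (30.2% in either direction). In rrp4-2 against L57, 64 were higher and 44 lower (15.6% and 10.7%), where 18.0% of all genes were higher and 8.54% lower (26.6% in either direction). With DESeq2 size factors the split turned to 59 higher and 90 lower in hen2-4 and to 38 and 90 in rrp4-2, and other alternatives turned it as well, so that no direction over all partners is given. Without L57 replicate 1 the calls numbered 93 in hen2-4 and 63 in rrp4-2, without hen2-4 replicate 1 they numbered 97, and without L57 replicate 2 they numbered 66 in rrp4-2.

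The partners included genes of photosynthesis, of gibberellin and wall loosening and of auxin response, given here as counts with no test. Of 27444 coding genes 419 (1.53%) had a light-stage member as antisense or divergent partner, 469 an exosome-sensitive and 516 a seed-stage transcript. Of 80 photosynthesis and chlorophyll genes 6 had a light-stage member, 1 an exosome-sensitive and 1 a seed-stage transcript. Of 110 genes of gibberellin and wall loosening 8, 3 and 2 had one, and of 173 auxin genes 5, 9 and 2. Of 69 replication and cell cycle genes 0, 1 and 3 had one, of 32 light and clock genes 1, 0 and 2, and of 56 cytosolic ribosomal protein genes 1, 0 and 1.

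The photosynthesis partners were PSAD-1, LHCB4.1, PSAP, FBA6, PETE2 and PSB28, all with an antisense member. In each of L6 against S72, L26 against L6, L57 against L26 and L57 against DS 5 of the 6 were higher and FBA6, of glycolysis, was lower. Over all genes 33.8%, 30.2%, 29.7% and 40.5% were higher in these comparisons, in that order. The lower shares were 31.0%, 28.1%, 35.5% and 37.7%. HOMER_RNA_00154964 (chr5:209566-210227, minus strand), within LHCB4.1, had 0 and 0 CPM in DS, 0 and 0.0285 CPM in S24, 0 and 0 CPM in S72, 0.140 and 0.199 CPM in L6, 0.0966 and 0.211 CPM in L26 and 0.777 and 0.945 CPM in L57, and 2.47 and 2.48 CPM in hen2-4 and 2.46 and 2.74 in rrp4-2, against 0.777 and 0.945 in L57. Its level per kb in L57 was 0.0745% of that of LHCB4.1, the antisense transcript being lower in all 16 libraries. HOMER_RNA_00112786 (chr4:1229193-1229671, plus strand), within PSAD-1 (AT4G02770) of photosystem I, had 0.0422 and 0.0379 CPM in DS, 0.00884 and 0.0610 CPM in S24, 0.0172 and 0.0124 CPM in S72, 0 and 0.0419 CPM in L6, 0.150 and 0.127 CPM in L26 and 0.865 and 1.04 CPM in L57. PSAD-1 itself had 937 and 1004 CPM in L57, against 42.9 and 49.3 in L26 (log2 fold change 4.42, SE 0.19, adjusted p = 3.18e-10). HOMER_RNA_00069808, within PSAP (AT2G46820), had 0.548 and 0.331 CPM in L57 and 0 and 0.327 in L26, where the libraries disagreed. In hen2-4 against L57 1 of the 6 genes was lower and 0 higher, and in rrp4-2 against L57 4 were lower and 0 higher. Of these 4, the calls of LHCB4.1 and PSAP were lost when L57 replicate 2 or rrp4-2 replicate 1 was left out. The call of LHCB4.1 was also lost without rrp4-2 replicate 2. Over all genes 10.6% were lower and 19.7% higher in hen2-4 against L57, and 8.54% and 18.0% in rrp4-2 against L57.

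Among genes of gibberellin and wall loosening, XTH31 (AT3G44990), of the xyloglucan-modifying family, and its member HOMER_RNA_00091524 (chr3:16447278-16448236, plus strand) moved together. The member had 0 and 0 CPM in DS, 0.0221 and 0 CPM in S24, 0 and 0 CPM in S72, 0.471 and 0.670 CPM in L6, 2.04 and 2.43 CPM in L26 and 1.32 and 1.1 CPM in L57, and XTH31 had 0 and 0.0759 CPM in DS, 0.0265 and 0 CPM in S24, 0 and 0.0783 CPM in S72, 92.8 and 99.8 CPM in L6, 589 and 554 CPM in L26 and 275 and 214 CPM in L57. Neither exceeded 0.0783 CPM in a seed library. XTH8 (AT1G11545) rose in L26 against L6 (log2 fold change 3.18, SE 0.20, adjusted p = 2.09e-08), and HOMER_RNA_00001550 within it had 0.408 and 0.528 CPM in L26 and at most 0.141 in any other Col-0 library. The partner GASA3 behaved otherwise: it had 535 and 586 CPM in DS, 258 and 306 CPM in S24, 195 and 183 CPM in S72, 142 and 134 CPM in L6, 18.4 and 11.6 CPM in L26 and 0.212 and 0.205 CPM in L57, and the divergent member HOMER_RNA_00117316, 257 bases upstream, had 0.407 and 0.389 CPM in DS, 0.336 and 0.366 CPM in S24, 0.318 and 0.119 CPM in S72, 0.401 and 0.440 CPM in L6, 0.0107 and 0 CPM in L26 and 0 and 0 CPM in L57. DS and L6 overlapped in this member, which was highest in a seed stage with TMM or DESeq2 size factors. Of the 8 genes of gibberellin and wall loosening with a member, GASA3 among them, 4 were higher and 2 lower in L6 against S72, 5 and 1 in L26 against L6, 3 and 5 in L57 against L26, 6 and 2 in L57 against DS, 1 and 0 in hen2-4 against L57 and 0 and 1 in rrp4-2 against L57. Over all genes the higher and lower shares were 33.8% and 31.0% in L6 against S72, 30.2% and 28.1% in L26 against L6, 29.7% and 35.5% in L57 against L26 and 40.5% and 37.7% in L57 against DS. In the mutants they were 19.7% and 10.6% in hen2-4 against L57 and 18.0% and 8.54% in rrp4-2 against L57.

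The 5 auxin partners were IAA16, IAA7, GH3.17, PIN3 and SAUR49, and all 5 were higher in L6 against S72. In L26 against L6, 4 were higher and 0 lower. In L57 against L26 and in L57 against DS 4 were higher and 1 lower, in hen2-4 against L57, 2 and 1, and in rrp4-2 against L57 1 and 0. Over all genes the higher shares in these 6 comparisons were 33.8%, 30.2%, 29.7%, 40.5%, 19.7% and 18.0%, in that order. The lower shares were 31.0%, 28.1%, 35.5%, 37.7%, 10.6% and 8.54%. PIN3 (AT1G70940) encodes an auxin efflux carrier and rose to 89.1 and 77.7 CPM in L57, against 24.0 and 24.3 in L26 (log2 fold change 1.81, SE 0.12, adjusted p = 1.07e-08). HOMER_RNA_00032391 (chr1:26744403-26745089, minus strand), within PIN3, had 0 and 0 CPM in DS, 0.0265 and 0.0122 CPM in S24, 0.0258 and 0.0288 CPM in S72, 0.0801 and 0.115 CPM in L6, 0.161 and 0.158 CPM in L26 and 0.512 and 0.346 CPM in L57. HOMER_RNA_00090469 (chr3:1289317-1289931, plus strand), within IAA16, had 0 and 0 CPM in DS, 0.0354 and 0 CPM in S24, 0 and 0 CPM in S72, 0.0801 and 0 CPM in L6, 0.268 and 0.274 CPM in L26 and 1.1 and 1.07 CPM in L57, and 3.05 and 2.65 CPM in hen2-4 and 2.42 and 2.7 in rrp4-2, against 1.1 and 1.07 in L57. Both members and both genes were highest in L57 among the stages, while HOMER_RNA_00024197, within the auxin-conjugating gene GH3.17 (AT1G28130), had 0.361 and 0.492 CPM in L6, 0.547 and 0.464 in L26 and 0.212 and 0.157 in L57 as GH3.17 had 1.27 and 1.58 CPM in L6, 15.3 and 16.2 CPM in L26 and 78.9 and 78.7 CPM in L57. The other list partners were APRR2 (AT4G18020), a response regulator gene whose member HOMER_RNA_00118918 reached 0.0966 and 0.169 CPM in L26, and the ribosomal protein gene RPS6B (AT5G10360), whose member HOMER_RNA_00162819 had 0.183 and 0.218 CPM in DS, 2.57 and 2.36 CPM in S24, 3.51 and 2.95 CPM in S72, 3.33 and 3.71 CPM in L6, 2.2 and 2.82 CPM in L26 and 1.02 and 0.661 CPM in L57, with S72 and L6 overlapping.

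The levels of antisense members and their sense genes were compared along the course. The median correlation was higher for members that peaked later. For r, log2 CPM was scaled by TMM over all rows, organellar ones included, with a prior count of 2. The stage of a member's highest mean is still that on nuclear CPM. With library sizes scaled by TMM, 36 of the 116 L6 members were highest in a seed stage. Over the 12 Col-0 libraries, Pearson's r of log2 CPM between an antisense member and its sense gene had a median of 0.65 over 402 pairs (quartiles 0.16 and 0.84), with 240 pairs above 0.5 and 52 below -0.25. With a prior count of 0.5 the median was 0.62. The libraries are 2 per stage along 1 course and both strands share library and depth, so r is a description. The rule set the stage of a member from its levels in these same libraries. Correlations of members with other genes were not computed, so the medians by stage do not test a link to the sense gene. The median was 0.75 for members highest in L57 (n = 193), 0.63 in L26 (n = 114) and 0.27 in L6 (n = 95), where 24 pairs were below -0.25. It was 0.45 for exosome-sensitive (n = 458) and 0.60 for seed-stage antisense transcripts (n = 505), and 0.04 for the 19 divergent members with their genes. Members under 1% of their sense gene's level per kb had a median r of 0.80 (n = 63) and the others 0.62 (n = 334), and the part of reads assigned to the wrong strand in this was not tested. Over 397 pairs with a value the member's level per kb was 6.95% of the sense gene's in the median, and above it in 63.

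The stage in which the sense gene was highest differed with that of the member. The sense gene was highest in L57 for 138 of 189 L57 members (73.0%), in L26 for 56 of 112 L26 members (50.0%) and in L6 for 27 of 91 L6 members (29.7%). Over 25870 annotated nuclear genes with at least 0.1 CPM the shares were 30.0% in L57, 20.3% in L26 and 13.4% in L6. For L6 members L57 was the most frequent stage of the sense gene, with 30 of 91 (33.0%).

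**Figure D5:**
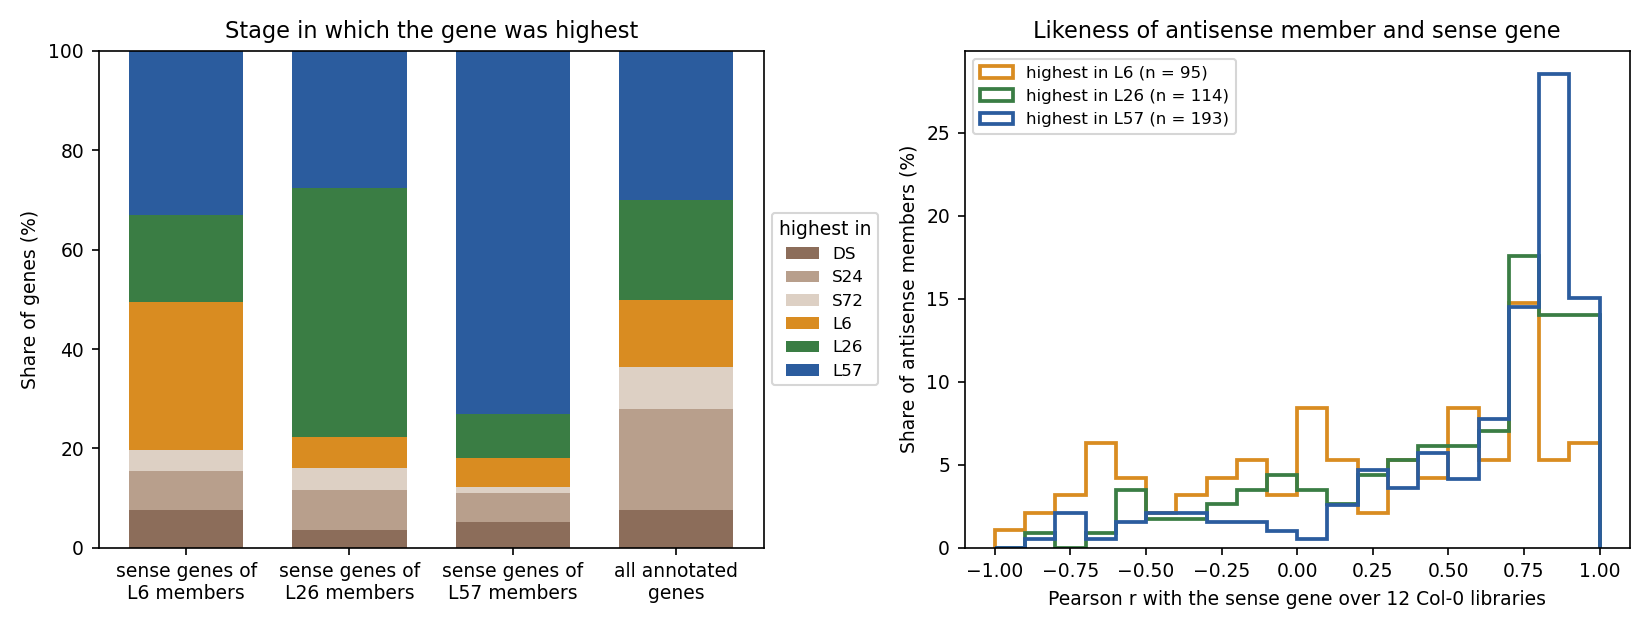
Left, share of sense genes (%) by the stage in which the gene was highest, for antisense members highest in L6 (91 genes), L26 (112) and L57 (189), and for all 25870 annotated genes with at least 0.1 CPM. Right, share of antisense members (%) by Pearson's r with the sense gene over the 12 Col-0 libraries, where the medians were 0.27 in L6, 0.63 in L26 and 0.75 in L57.

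Among members of at least 1 CPM the highest r were found opposite XTH31 (0.98), HSFA7B (0.98), DTA2 (0.97), PDX1.1 (0.97) and AT5G25020 (0.97). HOMER_RNA_00083047 (chr3:23400128-23400875, minus strand), opposite HSFA7B (AT3G63350), had 0.478 and 0.503 CPM in DS, 0.438 and 0.488 CPM in S24, 0.241 and 0.288 CPM in S72, 1.25 and 1.52 CPM in L6, 2.96 and 3.12 CPM in L26 and 0 and 0 CPM in L57. HSFA7B mRNA had 4.22 and 5.81 CPM in DS, 2.90 and 2.80 CPM in S24, 2.1 and 1.92 CPM in S72, 9.23 and 9.37 CPM in L6, 20.9 and 18.4 CPM in L26 and 0.283 and 0.488 CPM in L57, and so both were highest in L26 and lowest in L57. HOMER_RNA_00053837 (chr2:18865942-18866634, minus strand), within DTA2 (AT2G45830), a gene named as a target of the regulator AGL15, had 0 and 0.0190 CPM in DS, 0.00442 and 0.0163 CPM in S24, 0.0172 and 0.0371 CPM in S72, 1.09 and 1.06 CPM in L6, 2.19 and 2.54 CPM in L26 and 1.27 and 0.772 CPM in L57, and DTA2 had 0 and 0.0569 CPM in DS, 0.106 and 0.0976 CPM in S24, 0.129 and 0.210 CPM in S72, 3.74 and 3.78 CPM in L6, 10.2 and 11.2 CPM in L26 and 7.70 and 6.36 CPM in L57. Member and gene were at most 0.210 CPM in every seed library. HOMER_RNA_00139650 (chr5:8618303-8619485, minus strand), opposite AT5G25020, had 2.46 and 2.69 CPM in L26 where the gene had 2.15 and 2.12.

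The lowest r were found opposite PSY1R (-0.96), CEL5 (-0.89), BAM2 (-0.82), PHT2;1 (-0.79) and AT5G57790 (-0.75). In the first 4 of these the member was highest in L6 and the gene in L57. CEL5 rose to 4.38 and 3.01 CPM in L57, against 0.397 and 0.369 in L26 (log2 fold change 3.28, SE 0.31, adjusted p = 5.68e-07). HOMER_RNA_00088288 (chr3:18419070-18420872, minus strand), within BAM2, had 0.773 and 1.15 CPM in DS, 1.8 and 1.09 CPM in S24, 1.75 and 1.64 CPM in S72, 2.35 and 2.1 CPM in L6, 1.22 and 1.06 CPM in L26 and 0.212 and 0.173 CPM in L57, and BAM2 had 0.632 and 0.237 CPM in DS, 0.805 and 0.407 CPM in S24, 0.774 and 0.886 CPM in S72, 4.33 and 5.25 CPM in L6, 15.6 and 18.0 CPM in L26 and 64.7 and 59.1 CPM in L57. Member and gene were both higher in L6 than in S72, and from L6 to L57 they ran in opposite directions. STRINGTIE_RNA_00080418 (chr3:9755993-9758535, minus strand), with 3 exons, within PHT2;1, had 1.63 and 1.89 CPM in DS, 2.43 and 2.06 CPM in S24, 1.88 and 2.02 CPM in S72, 3.2 and 3.19 CPM in L6, 1.57 and 1.23 CPM in L26 and 0.318 and 0.205 CPM in L57. With TMM this member and those opposite PSY1R, CEL5 and BAM2 were highest in a seed stage. The pair at AT5G57790 ran the other way, with the gene highest in DS and HOMER_RNA_00154519 (chr5:23412572-23413847, plus strand) at 0 and 0 CPM in DS, 0.252 and 0 CPM in S24, 0.103 and 0.0618 CPM in S72, 0 and 0 CPM in L6, 0.311 and 0.559 CPM in L26 and 1.06 and 1.24 CPM in L57.

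Of the exosome and helper genes listed, 8 of 19 names matched a tested gene: RRP4, RRP41, RRP41L, RRP45A, CER7, RRP44A, HEN2 and MTR4. Of these 5 were higher and 1 lower in L6 against S72, 0 and 8 in L26 against L6, 0 and 8 in L57 against L26, 0 and 6 in L57 against DS, 1 (HEN2) and 0 in hen2-4 against L57, and 2 and 1 in rrp4-2 against L57. MTR4, the nuclear helicase related to HEN2, had 42.7 and 39.2 CPM in L57, against 123 and 128 in L26, and RRP44A, a catalytic subunit, had 38.4 and 35.4 CPM in L57, against 72.6 and 71.1 in L26. Over all genes, 28.1% were lower in L26 against L6, 35.5% in L57 against L26 and 37.7% in L57 against DS. In L6 against S72 33.8% of all genes were higher and 31.0% lower. The shares were 19.7% and 10.6% in hen2-4 against L57 and 18.0% and 8.54% in rrp4-2 against L57. The 8 matched genes thus fell in L26 against L6 and in L57 against L26. The other names were not analysed here, and the part of the 8 in the 210 members highest in L57 was not tested.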

How the data were processed

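Total RNA of Arabidopsis seeds and seedlings was sequenced after ribosomal RNA depletion with a stranded kit, in 16 libraries. Per the study's methods and the submitters' processing notes, the authors mapped reads to TAIR10 with STAR 2.7.9a, kept 1 random location for reads with several, assembled de novo transcripts with StringTie 2.1.4 and HOMER 4.11.1, and left out those that overlapped an Araport11 transcript on the same strand. The deposited table used here holds estimated counts per transcript or gene for 61786 rows. A deposited TPM table, in which the authors scaled each column to a sum of 1000000, served only to check columns: all 16 count columns matched their own TPM column best. 1 column spells rrp4 as rrpr4. The sources used here do not say whether the counting used strand.

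CPM was computed over 58754 annotated nuclear rows and 2414 de novo rows, with 618 organellar and other rows left out. Members and lists were chosen with earlier results of these data known. Partner genes were tested with edgeR 4.0.16 in R 4.3.3 (quasi-likelihood test, TMM, low counts filtered with filterByExpr, all 8 groups in 1 fit, 8 residual degrees of freedom, Benjamini-Hochberg adjustment over all 28824 genes tested, threshold 0.05). In simulated counts for L57 against L26 78 of 100 genes with a 2-fold change were called, and 96 of 100 with a 4-fold change. The simulation fitted only the 4 libraries compared and changed only well-counted genes, so it does not give the power of the fit over all 16 libraries. Named were the 8 highest members per stage, the 3 highest per gene list, the 5 highest and 5 lowest r among antisense members of at least 1 CPM, and the 3 highest and lowest mutant ratios among those of at least 0.5 CPM in L57. Sequences came from the RefSeq TAIR10.1 assembly, copies were sought with blastn 2.17.0 at 95% identity, and tables and figures were made with Python 3.11.15, pandas 2.3.3 and matplotlib 3.10.9. Depth was 75.6 to 266.4 M (M, 1000000 counts) per library, and 3 counts correspond to 0.0122 to 0.0530 CPM. Alternatives were DESeq2 1.42.0 size factors, its Wald test, no filter, no organellar rows, the compared libraries alone, a replicate block, a library left out, and other floors, ratios and scalings for membership. Deviations of same-numbered libraries from their group means had correlations of -0.0471 to 0.0910 over 28 pairs of groups, so the numbers do not pair the libraries.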

Additional observations from a re-analysis of the deposited data

How the results depend on the processing

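The number of partner genes called stayed within 1.5 times of the reported count in 4 stage comparisons under every alternative run. With 1 library left out it was 295 to 303 in L6 against S72, 270 to 288 in L26 against L6, 314 to 327 in L57 against L26, 362 to 365 in L57 against DS, 93 to 105 in hen2-4 against L57 and 63 to 80 in rrp4-2 against L57. The low values came without L57 replicate 1 (93 and 63), without hen2-4 replicate 1 (97) and without L57 replicate 2 (66), and fewer libraries were then fitted. The split in hen2-4 against L57 turned from 85 higher and 62 lower to 59 and 90 with DESeq2 size factors, 68 and 77 without organellar rows, 87 and 108 with 4 libraries alone and 64 and 99 with the Wald test, and that in rrp4-2 from 64 and 44 to 38 and 90, 46 and 72, 62 and 94, and 43 and 100 in the same order. It did not turn without the filter (69 and 61, 47 and 46) or with the block (84 and 59, 65 and 46). The cause was not tested.

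A fit with replicate number as a block, although the numbers do not pair the libraries, called 315, 305, 341, 370, 143 and 111 partners in the 6 comparisons. The rule gave 581 members with a floor of 0.05 CPM, 338 with 0.2, 337 with a ratio of 2, 530 with a ratio of 4, and 466 and 473 in single replicates. Reading the 0.2 CPM limit over the mean or the highest of the 8 groups, alternatives chosen after seeing the data, gave 487 and 452. TMM-scaled sizes gave 365 members, DESeq2 size factors 417 and CPM over all rows 444, sharing 338, 383 and 386 with the 459. The median r of antisense pairs was 0.70 without the DS libraries and 0.64 to 0.69 with 1 replicate of every group left out, against 0.65. Of 176 called results for named partners, 10 lost the call with DESeq2 size factors, 10 with the Wald test, 7 without organellar rows, 6 without the filter, 6 with 4 libraries alone and 3 with the block. With 1 library left out at a time, 79 calls were lost and 625 were not. None reversed. Depth limits members near the floor of 0.1 CPM, as 3 counts are worth 0.0122 to 0.0530 CPM.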
